A study of Mus musculus with 8 samples.

Results

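The transcripts of 9 cathepsins (Ctsa, Ctsb, Ctsc, Ctsd, Ctsf, Ctsh, Ctsl, Ctss and Ctsz) and of cystatin C (Cst3) were compared in repopulating microglia (n = 3), bone-marrow macrophages (n = 3) and wild-type microglia (n = 2) of the mouse. The genes were taken by symbol. All 10 were present among the 23413 genes of the deposited RNA-seq table, and all 10 were among the 11415 genes that passed the filter on low values. Microglia are macrophages that live in brain tissue, and the series asks how they renew themselves after depletion and what part interleukin-1 signalling has in this. Repopulating microglia and bone-marrow macrophages carry the strain label DTRmg and wild-type microglia the label DTR, so strain label and group cannot be told apart in comparisons with wild type. The labels do not spell out either allele or the age at collection. One protocol stands on all 8 samples: subcutaneous tamoxifen (2 mg at postnatal day 12 and again at day 14) and 3 intraperitoneal doses of 500 ng diphtheria toxin for depletion. It does not say which groups received the toxin. Brain cells were released with papain, enriched on Percoll and sorted, and it is not stated whether the bone-marrow macrophages came from marrow or from brain. Their columns, headed mono, were assigned by exclusion. The labels do not say that replicates were separate animals, so the spread behind each p-value may be technical.

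Cathepsins are the peptidases of the lysosome. Most are cysteine peptidases of the papain type, while Ctsd is an aspartic and Ctsa a serine peptidase. They are made as inactive precursors, carried to the lysosome by mannose 6-phosphate receptors and sortilin, and matured there at acid pH. Cystatin C is a secreted protein that binds and blocks cysteine cathepsins, and it does not block Ctsd or Ctsa. Microglia are rich in the transcripts of Cst3, Ctss and Ctsd.

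Reads counted in genes came to between 5918944 and 12476427 per library. Values are normalised counts, that is, reads divided by the authors' size factor for the library. Replicate 3 of the repopulating microglia stood apart from replicates 1 and 2. The SD of its log2 differences from them over all tested genes was 0.875 and 1.01, against 0.519 between replicates 1 and 2. Results are therefore also given without it. As labelled, 10 microglia markers summed to a normalised count of 257858 to 298888 in repopulating microglia, to between 94980 and 107218 in bone-marrow macrophages and to between 408966 and 449511 in wild-type microglia. Sall1, a transcription factor of microglia, stood between 9.55 and 35.8 in bone-marrow macrophages and at 1864 or more in every microglia library. Markers of other cells also differed. The 8 neutrophil markers summed to between 1573 and 2969 in repopulating microglia, 767 and 1284 in bone-marrow macrophages and 25330 and 27760 in wild-type microglia. The 6 border-associated macrophage markers summed to between 416 and 1083, 5614 and 6973, and 697 and 1072 in the same order of groups, and none of the markers in either list was at 0 in a whole group. Mrc1 and Pf4 made up most of the sum in bone-marrow macrophages, at means of 4087 and 1478, and Cbr2 was also highest there, at 93.9. Cd163 and Lyve1 had their lowest means there (21.2 and 6.46), and F13a1 averaged 406, beside 404 in wild-type microglia. The 5 astrocyte markers summed to between 241 and 2095 in repopulating microglia, 77.9 and 103 in bone-marrow macrophages and 1132 and 6484 in wild-type microglia. In both kinds of microglia most of this was Slc1a3, at 1387, 182 and 1909 in repopulating microglia 1 to 3 and 987 and 6365 in wild-type microglia. In bone-marrow macrophages Slc1a3 stood between 14.1 and 17.0, and Aldoc was the largest part, at a mean of 44.8. Gfap stood between 13.2 and 30.0 in every library. Summed, 6 monocyte markers came to between 620 and 1719 in repopulating microglia, 1458 and 2179 in bone-marrow macrophages and 4880 and 6826 in wild-type microglia. By mean, Ccr2 of that list was highest in bone-marrow macrophages and Fn1 in repopulating microglia. The sums of 4 B-cell and of 4 endothelial markers were also highest in wild-type microglia, though not every marker of those lists was. The part of such cells in the results below was not tested. In bulk samples fewer cells of a type and less RNA per cell cannot be told apart.

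Levels of different genes were set against each other per kilobase of transcript, using the longest transcript linked to a curated RefSeq mRNA. On this scale Cst3 held the highest level of all 19240 genes with a known length in each of the 5 microglia libraries. It averaged 147270 ± 24684 normalised counts per kb in repopulating microglia (SD, n = 3), 37666 ± 1058 in bone-marrow macrophages (SD, n = 3) and 255542 ± 1877 in wild-type microglia (SD, n = 2). In bone-marrow macrophages it ranked between 4 and 8, below Ctss. Ctss, a cysteine peptidase that stays active near neutral pH and trims the invariant chain of MHC class II, came next of the 10 genes in both kinds of microglia. It averaged 92663 ± 21166 per kb in repopulating microglia, 42419 ± 3007 in bone-marrow macrophages and 60857 ± 2817 in wild-type microglia. Ctsd, the main aspartic peptidase of the lysosome, averaged 64990 ± 4537, 34997 ± 4262 and 44194 ± 3711 per kb in those groups. Ctss and Ctsd together made up 78.1% ± 1.67 of the summed per-kb level of the 9 cathepsins in repopulating microglia, 71.2% ± 1.18 in bone-marrow macrophages and 78.3% ± 0.530 in wild-type microglia (SD).

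The other 7 cathepsins followed, with group means between 366.8 and 12211 per kb. In repopulating microglia the order was Ctsb, Ctsz, Ctsh, Ctsl, Ctsa, Ctsc and Ctsf. The replicate ranges of Ctss and Ctsd overlapped there, as did those of Ctsb and Ctsz, Ctsh and Ctsl, Ctsa and Ctsc, and Ctsc and Ctsf. In bone-marrow macrophages the order was Ctsb, Ctsz, Ctsh, Ctsc, Ctsa, Ctsl and Ctsf, with overlap between Cst3 and Ctsd, between Ctsb and Ctsz and between Ctsh and Ctsc. In wild-type microglia it was Ctsb, Ctsz, Ctsl, Ctsh, Ctsa, Ctsc and Ctsf, with overlap between Ctsb and Ctsz and between Ctsz and Ctsl. Ctsf came last in all 3 groups, at 1914 ± 400 per kb in repopulating microglia, 367 ± 67.2 in bone-marrow macrophages and 1265 ± 61.1 in wild-type microglia.

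**Figure D1:**
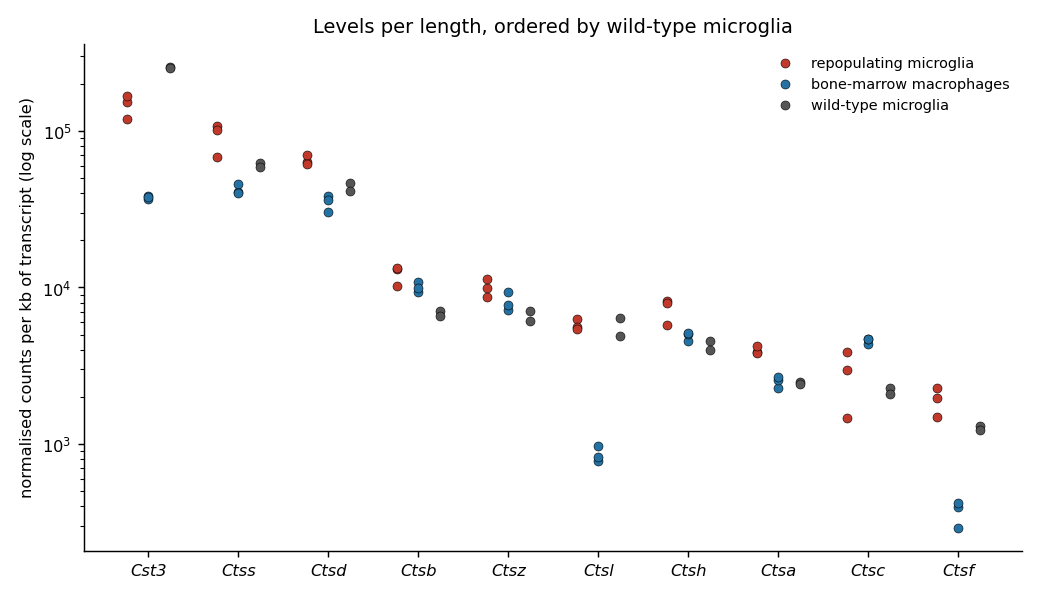
Normalised counts per kb of transcript (log axis) of each gene in every library, with genes ordered by their level in wild-type microglia. One point is one library, and in bone-marrow macrophages Cst3 lies below Ctss and Ctsl falls to between 777 and 975 per kb.

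The reads of the 10 genes together took 5.98% ± 0.0456 of all reads counted in genes in repopulating microglia (SD, n = 3), 3.58% ± 0.194 in bone-marrow macrophages (SD, n = 3) and 5.97% ± 0.0152 in wild-type microglia (SD, n = 2). The sum was thus nearly the same in both kinds of microglia, but its parts were not. The 9 cathepsins took between 4.17% and 4.76% in repopulating microglia, 2.91% and 3.33% in bone-marrow macrophages and 3.13% and 3.28% in wild-type microglia. Cst3 took between 1.18% and 1.81% in repopulating microglia, 0.433% and 0.469% in bone-marrow macrophages and 2.71% and 2.83% in wild-type microglia. These shares do not depend on the authors' size factors, though they depend on all other genes counted.

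A ratio within a library is free of both. The summed per-kb level of the 7 cysteine cathepsins (Ctsb, Ctsc, Ctsf, Ctsh, Ctsl, Ctss and Ctsz) over that of Cst3 was 0.977, 1.19 and 0.625 in repopulating microglia 1 to 3, 1.74, 2.07 and 1.87 in bone-marrow macrophages 1 to 3, and 0.356 and 0.329 in the wild-type microglia. The groups did not overlap, and wild-type microglia were lowest. The ratio is one of transcripts and shows that the genes changed unequally, not how much active enzyme the cells held. Without replicate 3 the mean of the repopulating microglia was 1.08, against 0.930 with it. Taken by single genes, Ctsb had 0.472 ± 0.139 reads per read of Cst3 in repopulating microglia, 1.48 ± 0.157 in bone-marrow macrophages and 0.147 ± 0.00631 in wild-type microglia (SD). Ctsl had 0.0914 ± 0.0167, 0.0525 ± 0.00776 and 0.0505 ± 0.00891 reads per read of Cst3 in the same groups, so it did not follow Ctsb in bone-marrow macrophages.

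**Figure D2:**
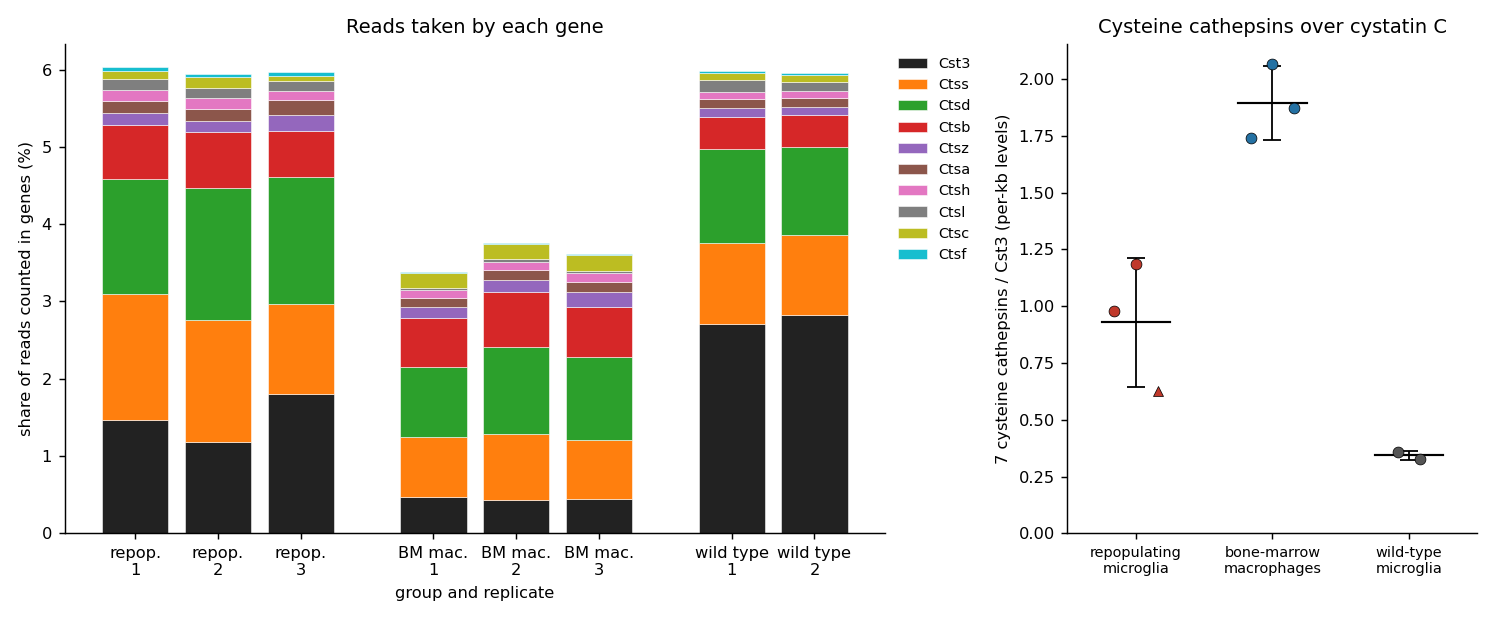
Left, the share of all reads counted in genes (%) that each gene took in each library, stacked. Right, the ratio of the summed per-kb level of 7 cysteine cathepsins to that of Cst3 in each library, with mean and SD; it lies between 0.625 and 1.19 in repopulating microglia, between 1.74 and 2.07 in bone-marrow macrophages and at 0.329 and 0.356 in wild-type microglia, and the triangle is repopulating replicate 3.

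The 250 bases before each RefSeq transcription start (GRCm38.p6), which gave 9 windows for 8 of the 10 genes with 2 for Ctsa, were searched for motifs. Every CACGTG found is shown in 30 bases, because its extended form TCACGTGA is in general the core of the element through which TFEB and its relatives act on lysosomal genes. Sequences run 5′ to 3′ on the gene's strand, and capitals mark CACGTG.
Ctsa (chr2:164833743-164833772, plus strand): gaacaatgagcaaactgtCACGTGatgcag
Ctsd (chr7:142388048-142388077, minus strand): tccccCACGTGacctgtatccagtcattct
Ctsd (chr7:142387908-142387937, minus strand): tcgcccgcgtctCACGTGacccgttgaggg
Ctsf (chr19:4855074-4855103, plus strand): caccccgtggtcCACGTGcctcgcgtaaat
Ctsl (chr13:64370739-64370768, minus strand): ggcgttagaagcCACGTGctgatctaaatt
The stretches of Ctsa and Ctsl and the second of Ctsd overlap exon and UTR that GENCODE annotates for the same gene. The first of Ctsd and that of Ctsf lie outside the gene's exons. CACGTG, which is its own reverse complement, was found in 6.04% of 32526 distinct windows of that length over all genes, and TCACGTGA, which contains it, in 0.793%. Among the 9 windows, CACGTG stood in those of Ctsf and Ctsl once each, in the second window of Ctsa and in that of Ctsd 2 times. TCACGTGA began at -99 in Ctsd and at -13 in the second window of Ctsa, counted from the start. GGGCGG, present in 33.0% of windows, stood in those of Ctsc, Ctsd, Ctsf, Ctss, Ctsz and Cst3. AGGAAGT, the core of an ETS factor site, searched on both strands and present in 7.70% of windows, was found in that of Ctsc. A match to the interferon response element, searched on both strands and present in 2.98% of windows, began at -21 in that of Ctss. A match describes letters in the window and not a site in use.

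Repopulating microglia were compared first with wild-type microglia. Cst3 (chromosome 2, 148871722 to 148875692, minus strand, GRCm38) stood at 132308, 103168 and 144480 normalised counts in repopulating microglia 1 to 3, against 220908 and 218625 in wild-type microglia. All 3 repopulating libraries lay below both wild-type libraries. Cst3 fell by 0.81 ± 0.20 on the log2 scale (SE), to 0.571 of its wild-type level (limma adjusted p = 0.0451). In the other direction Ctsa, Ctsb and Ctsh rose. Ctsb (chromosome 14, 63122462 to 63145923, plus strand), a cysteine peptidase that also trims peptides from their carboxyl end, stood at 62078, 63244 and 48428 in repopulating and at 33379 and 31084 in wild-type microglia. The groups did not overlap, and Ctsb rose 1.79-fold (log2 0.84 ± 0.19, limma adjusted p = 0.0304). Ctsh (chromosome 9, 90054152 to 90076089, plus strand), an aminopeptidase, stood at 13247, 12852 and 9259 in repopulating and at 7372 and 6440 in wild-type microglia. Replicate 3 was lowest of the repopulating libraries and still above both wild-type ones. Ctsh rose 1.69-fold (log2 0.76 ± 0.18, limma adjusted p = 0.0391). Ctsa (chromosome 2, 164832873 to 164841032, plus strand), the carboxypeptidase that protects beta-galactosidase and neuraminidase in the lysosome, stood at 13998, 13957 and 15374 in repopulating and at 9128 and 8852 in wild-type microglia. Its repopulating replicates lay close together and apart from wild type, and it rose 1.61-fold (log2 0.68 ± 0.14, limma adjusted p = 0.0214).

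Ctsd, Ctss, Ctsz and Ctsf were also higher in every repopulating library than in either wild-type library, but did not pass the threshold. Ctsd (chromosome 7, 142375911 to 142388038, minus strand) stood at 134429, 149206 and 131065 in repopulating and at 99583 and 88419 in wild-type microglia (log2 0.56 ± 0.20, limma adjusted p = 0.123). Ctss (chromosome 3, 95526786 to 95556403, plus strand) stood at 146250, 137605 and 92819 in repopulating and at 85159 and 79762 in wild-type microglia (log2 0.58 ± 0.24, limma adjusted p = 0.161). Its replicate 3 lay much nearer to wild type than replicates 1 and 2 did. Ctsz (chromosome 2, 174427493 to 174439039, minus strand), a carboxypeptidase also called cathepsin X, stood at 14271, 12452 and 16395 in repopulating and at 10189 and 8768 in wild-type microglia (log2 0.60 ± 0.18, limma adjusted p = 0.0784). Ctsf (chromosome 19, 4855130 to 4860918, plus strand), which in macrophages can process the invariant chain, stood at 3914, 2943 and 4514 in repopulating and at 2590 and 2419 in wild-type microglia (log2 0.58 ± 0.21, limma adjusted p = 0.130). Its lowest repopulating value lay close to the wild-type range.

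Ctsl and Ctsc overlapped between these groups. Ctsl (chromosome 13, 64359337 to 64370890, minus strand), a broad endopeptidase, stood at 12377, 11031 and 10652 in repopulating and at 12541 and 9656 in wild-type microglia. Its log2 difference of 0.04 ± 0.17 (SE) turned to -0.07 with libraries scaled to equal totals and to -0.34 with quantile normalisation. Ctsc (chromosome 7, 88278085 to 88310888, plus strand), which activates the serine peptidases of leukocyte granules, stood at 9593, 12486 and 4714 in repopulating and at 7274 and 6710 in wild-type microglia. Replicate 3 lay below wild type and the other repopulating libraries above it (log2 0.24 ± 0.34, limma adjusted p = 0.681, and log2 -0.16 with quantile normalisation).

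**Figure D3:**
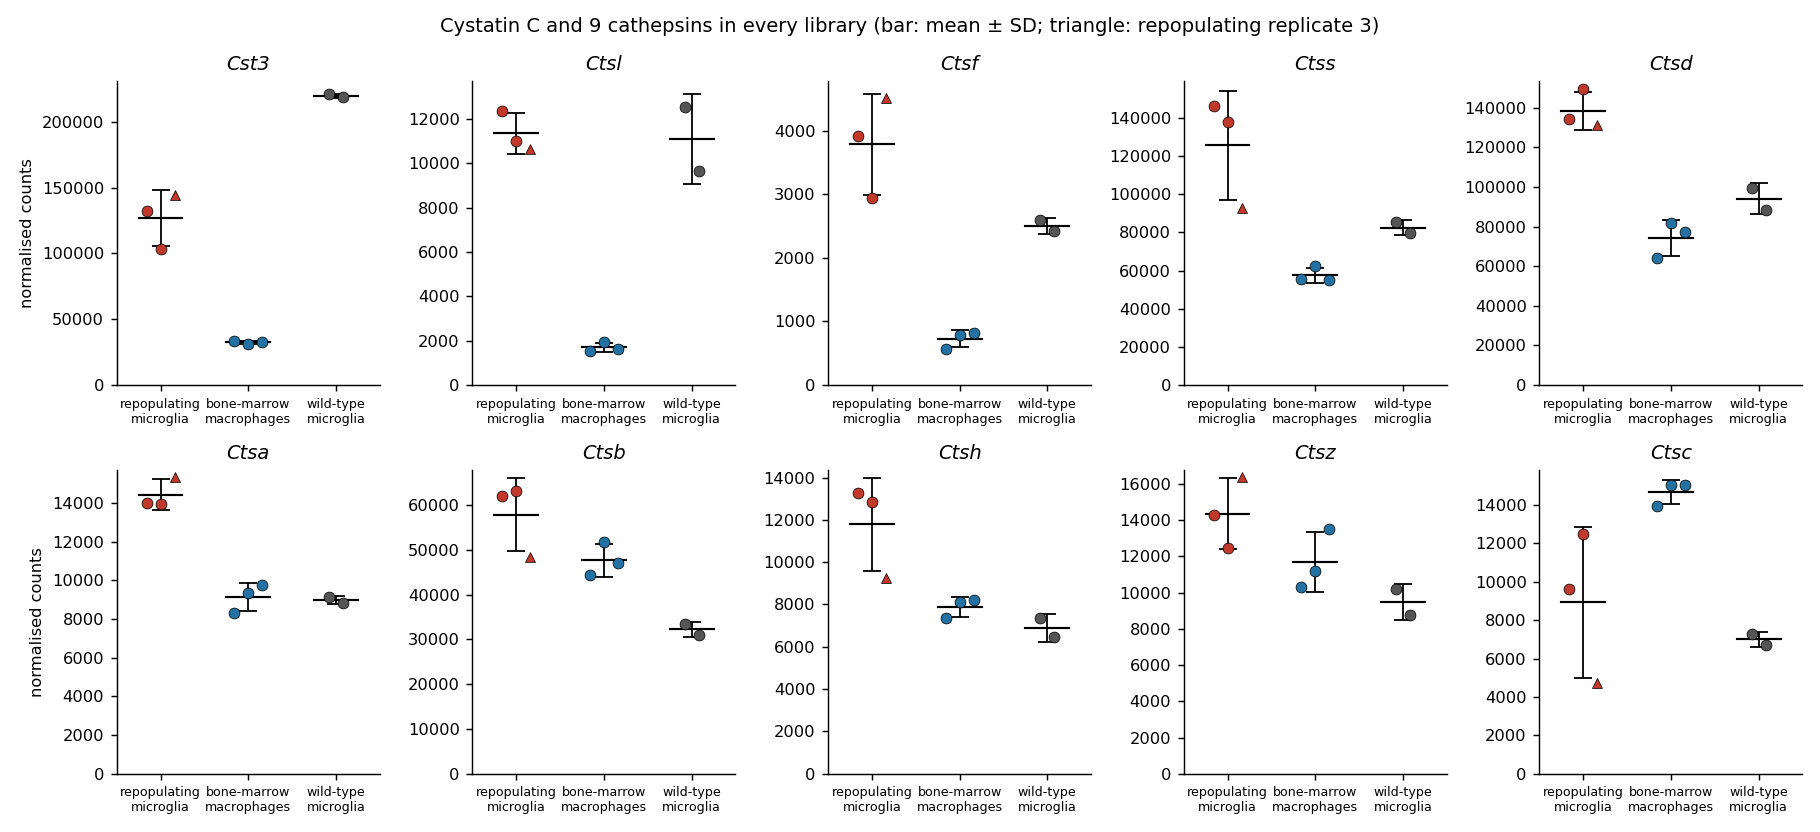
Normalised counts (linear axis from 0) of each gene in every library of repopulating microglia, bone-marrow macrophages and wild-type microglia. Points are libraries, the triangle is repopulating replicate 3, and lines give mean and SD; Cst3 is highest in wild-type microglia, at 220908 and 218625, and Ctsl is lowest in bone-marrow macrophages, between 1532 and 1922.

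Of the 10 genes, 3 were called higher and 1 lower in repopulating microglia at an adjusted p under 0.05. Over all tested genes 8.61% were called, 4.86% higher and 3.75% lower. The median log2 fold of the 10 was 0.58, beside -0.02 for all genes tested. Ranges of the groups did not overlap for 8 of the 10, beside 40.4% of all genes. The calls rested on a spread estimated over all 3 groups. With the repopulating and wild-type libraries alone limma called none of the 10 and 78 genes in all, while 6 of the 10 had an unadjusted p under 0.05. None was called without repopulating replicate 1, bone-marrow macrophage replicate 2, or wild-type replicate 1 or 2. Only Ctsa was called without repopulating replicate 2 or bone-marrow macrophage replicate 1 or 3. Without repopulating replicate 3, 8 were called: Ctsa, Ctsb, Ctsc, Ctsd, Ctsh, Ctss and Ctsz higher and Cst3 lower. Then Ctsb had a log2 fold of 0.96, Ctsh 0.92, Ctss 0.78, Ctsc 0.65 and Cst3 -0.91 (limma adjusted p = 0.000328, 0.000134, 0.00222, 0.00429 and 0.00125 in that order). Count tests on the recovered reads called 4 of the 10 with edgeR and 7 with DESeq2.

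Replicate 3 set apart some of the cathepsins more than others. Against the mean of repopulating replicates 1 and 2 it was lower by a log2 difference of -1.21 for Ctsc, -0.61 for Ctss, -0.49 for Ctsh and -0.37 for Ctsb. It was higher by 0.41 for Ctsf, 0.31 for Cst3 and 0.30 for Ctsz, and within 0.14 for Ctsa, Ctsd and Ctsl. The SD of this difference over all tested genes was 0.906, and Ctsc alone of the 10 lay beyond 1 SD. That SD also covers genes of low count, so it is a wide measure for genes as high as these. Replicate 2 differed from replicate 1 by 0.38 for Ctsc, -0.09 for Ctss, -0.04 for Ctsh and 0.03 for Ctsb. For Ctsf, Cst3 and Ctsz it differed by -0.41, -0.36 and -0.20.

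The second comparison set bone-marrow macrophages against wild-type microglia. Cst3, Ctsl and Ctsf fell by large amounts and Ctsb and Ctsc rose. In bone-marrow macrophages 1 to 3 Cst3 had a normalised count of 33257, 31444 and 32479, against 220908 and 218625 in wild-type microglia. The replicates of each group were close together, and Cst3 fell by 2.76 ± 0.20 on the log2 scale (SE), with wild type 6.79-fold higher (limma adjusted p = 3.04e-05). Ctsl stood at 1532, 1922 and 1635 in bone-marrow macrophages and fell by 2.70 ± 0.17, with wild type 6.51-fold higher (limma adjusted p = 1.65e-05). Ctsf stood at 575, 782 and 823 in bone-marrow macrophages and fell by 1.80 ± 0.21, with wild type 3.48-fold higher (limma adjusted p = 0.000305). Each of these 3 falls passed under all 21 alternatives, with an adjusted p of at most 0.00103, 0.000593 and 0.00608.

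Of the 3 groups Ctsc was highest in bone-marrow macrophages, at 13948, 15020 and 15050, and rose by 109.9% over wild type (log2 1.07 ± 0.34, limma adjusted p = 0.0325). Ctsb stood at 44352, 51673 and 47038 in bone-marrow macrophages, above both wild-type libraries, and rose 1.48-fold (log2 0.56 ± 0.19, limma adjusted p = 0.0384). Both calls ended without any one of the 3 bone-marrow macrophage or 2 wild-type libraries. Over all alternatives the adjusted p reached 0.187 for Ctsb and 0.147 for Ctsc. Ctss was lower in each bone-marrow macrophage library, between 54800 and 62167, than in either wild-type library, without passing the threshold (log2 -0.52 ± 0.24, limma adjusted p = 0.103). It passed without repopulating replicate 3 (adjusted p = 0.00505), with the 2 groups alone, with library quality weights and with DESeq2. Ctsd differed by a log2 of -0.34 ± 0.20 with ranges that did not overlap, and Ctsz by 0.29 ± 0.18 likewise (limma adjusted p = 0.197 and 0.214). Ctsa and Ctsh overlapped between the groups, at log2 0.02 ± 0.14 and 0.19 ± 0.18, and the sign for Ctsa was negative with quantile normalisation. In all 2 rose and 3 fell, where 43.5% of all genes tested were called, 21.3% higher and 22.2% lower. The count of 5 in 10 is thus near the background. Ranges did not overlap for 8 of the 10, beside 75.8% of all genes.

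The third comparison set repopulating microglia against bone-marrow macrophages, both of strain label DTRmg. Here 7 of the 10 genes rose in repopulating microglia and none fell, where 30.9% of all genes were called, 16.0% higher and 14.9% lower. Ctsl was 6.71-fold higher in repopulating microglia (log2 2.75 ± 0.15, limma adjusted p = 1.24e-05), at 11353 ± 907 normalised counts (SD, n = 3) against 1696 ± 202 in bone-marrow macrophages (SD, n = 3). Ctsf was 5.20-fold higher (log2 2.38 ± 0.19, limma adjusted p = 5.26e-05), at 3790 ± 793 against 726 ± 133. Cst3 was 3.87-fold higher (log2 1.95 ± 0.18, limma adjusted p = 0.000118), at 126652 ± 21229 against 32393 ± 910. These 3 passed under all 21 alternatives. Set side by side, wild-type microglia stood at 11098 ± 2040 normalised counts for Ctsl, 2504 ± 121 for Ctsf and 219766 ± 1614 for Cst3 (SD, n = 2). The comparisons against bone-marrow macrophages share those libraries.

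Ctss, Ctsd, Ctsa and Ctsh rose by smaller amounts. Ctss was 2.15-fold higher in repopulating microglia (log2 1.10 ± 0.21), Ctsd 1.86-fold (0.90 ± 0.18) and Ctsa 1.58-fold (0.66 ± 0.12), with limma adjusted p = 0.00454, 0.00569 and 0.00388. These 3 calls ended only with quantile normalisation, where the adjusted p was 0.0693, 0.176 and 0.141. Ctsh was 1.48-fold higher (log2 0.56 ± 0.16, limma adjusted p = 0.0298). It was not called with libraries scaled to equal totals, with quantile normalisation, with no filter or with the 2 groups alone, nor without repopulating replicate 1 or 2 or any one bone-marrow macrophage library. Its adjusted p reached 0.115 over all alternatives. Ctsc was lower in every repopulating library than in any bone-marrow macrophage library, but its log2 difference of -0.83 ± 0.31 did not pass (limma adjusted p = 0.0711). It passed with equal totals, with quantile normalisation, with library quality weights, and without repopulating replicate 2 (log2 -1.27) or replicate 3 (log2 -0.42, adjusted p = 0.0144). Ctsb and Ctsz overlapped between the groups (log2 0.27 ± 0.17 and 0.30 ± 0.16), and with quantile normalisation both turned negative and Ctsb was called lower. Without repopulating replicate 3, Ctsb was called higher at log2 0.40 (adjusted p = 0.0209). The median log2 fold of the 10 was 0.78, beside 0.00406 for all genes. Ranges did not overlap for 8 of the 10, beside 46.0% of all genes.

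**Figure D4:**
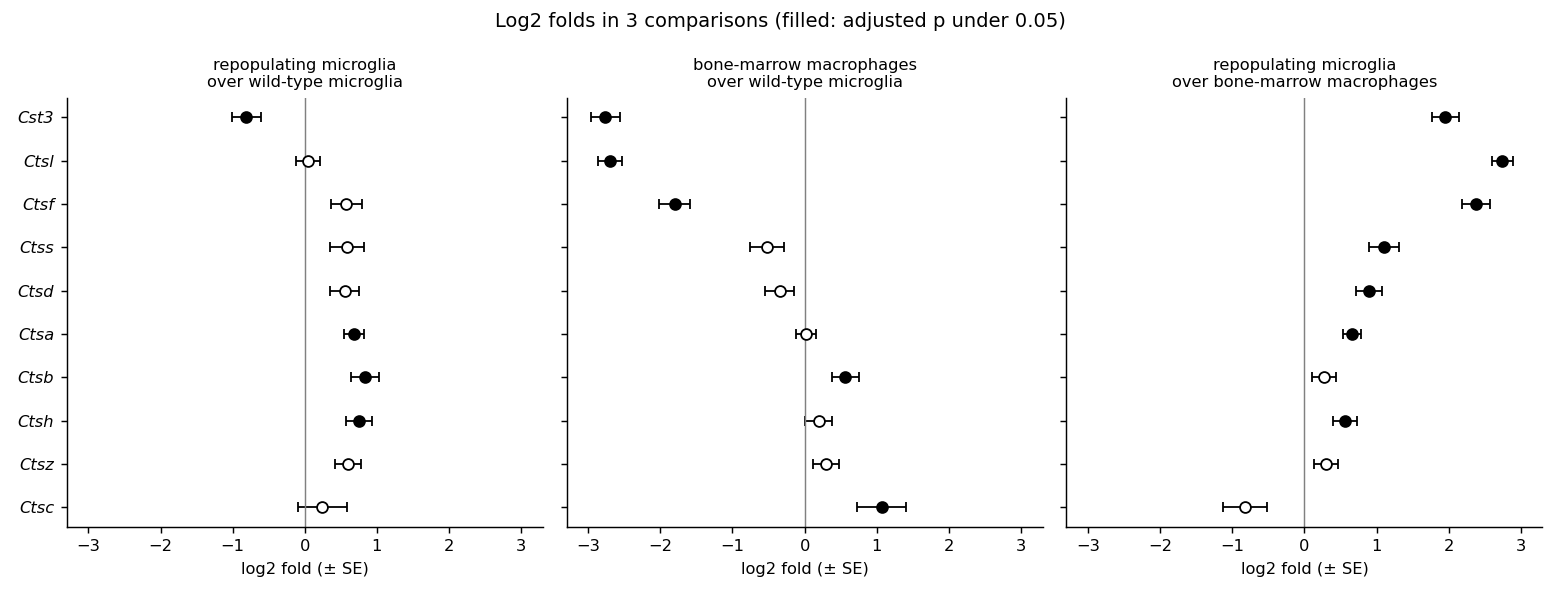
Log2 fold with SE of each gene in the 3 comparisons, from limma on log2(normalised count + 1). Filled points have an adjusted p under 0.05; Cst3, Ctsl and Ctsf stand far to the left in bone-marrow macrophages over wild-type microglia and far to the right in repopulating microglia over bone-marrow macrophages.

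Of 14 other cathepsins, 5 passed the filter on low values. Ctsj, Ctsm, Ctsq, Ctsr, Cts3, Cts6, Cts7 and Ctsll3 had no read in any library. Ctse, an aspartic peptidase of endosomes, averaged 162 ± 73.6 normalised counts in repopulating microglia, 2705 ± 259 in bone-marrow macrophages and 34.4 ± 2.68 in wild-type microglia (SD). It rose in bone-marrow macrophages over wild type by a log2 of 6.25 ± 0.34 and was lower in repopulating microglia than in bone-marrow macrophages by -4.16 ± 0.31 (limma adjusted p = 1.03e-05 and 3.98e-05). Ctso, a cysteine peptidase, had 1527, 1076 and 776 in repopulating microglia, between 430 and 522 in bone-marrow macrophages, and 2187 and 2066 in wild-type microglia. The 3 groups did not overlap, and Ctso fell by 2.12 ± 0.25 in bone-marrow macrophages against wild type (limma adjusted p = 0.000289). Ctsk, which lies 17423 bases from Ctss on chromosome 3, did not follow it, with 1928, 4203 and 70.3 in repopulating microglia, between 326 and 857 in bone-marrow macrophages, and 0 and 19.3 in wild-type microglia. Ctsg, a granule peptidase of neutrophils, had no read in repopulating microglia, at most 7.05 normalised counts in bone-marrow macrophages, and 35.3 and 19.3 in wild-type microglia, where neutrophil markers were also highest. Of the 5 tested, 2 rose (Ctse and Ctsk) and 2 fell (Ctsg and Ctso) in repopulating microglia against wild type. There 8.61% of all genes tested were called. The same 4 were called that way in bone-marrow macrophages against wild type, beside 43.5% of all genes tested. Several of these calls rested on single libraries. In repopulating microglia against wild type the call of Ctse ended without wild-type replicate 1 or 2, and that of Ctsg without wild-type replicate 1. That of Ctso ended without repopulating replicate 2 or any one library of the other groups, and that of Ctsk without any one library other than repopulating replicate 3. In bone-marrow macrophages against wild type the call of Ctsk ended without wild-type replicate 1, and that of Ctsg without wild-type replicate 1 or bone-marrow macrophage replicate 1.

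Of 22 other cathepsin inhibitors listed, 8 were tested. Cst7, an intracellular cystatin that holds back Ctsc, averaged 549 ± 75.5 normalised counts in repopulating microglia, 87.5 ± 13.6 in bone-marrow macrophages and 174 ± 48.1 in wild-type microglia (SD). It rose over wild type by a log2 of 1.67 ± 0.23 in repopulating microglia, where Cst3 fell (limma adjusted p = 0.00552, and 0.0545 without wild-type replicate 2), and fell in bone-marrow macrophages (log2 -0.97 ± 0.23, limma adjusted p = 0.00878, and 0.0901 without wild-type replicate 1). Serpinb1a, a serpin that blocks neutrophil serine peptidases including cathepsin G, averaged 9.10 ± 2.16 in repopulating microglia, 8.58 ± 3.75 in bone-marrow macrophages and 131 ± 6.80 in wild-type microglia, beside the high neutrophil markers there. Serpinb6a averaged 87.3 ± 27.1, 202 ± 44.8 and 64.8 ± 12.6 in those groups and rose in bone-marrow macrophages over wild type (log2 1.62 ± 0.31, limma adjusted p = 0.00329). Of the 8, 1 rose and 3 (Serpina3g, Serpinb1a and Stfa2l1) fell in repopulating microglia against wild type, beside 8.61% of all genes called. The median log2 fold of the 8 was 0.24. Without wild-type replicate 1 none of those falls was called (adjusted p up to 0.222, 0.0539 and 0.172 over the alternatives, in that order), and without wild-type replicate 2 only 1 fell and none rose. In bone-marrow macrophages against wild type 2 rose and 3 fell, beside 43.5% of all genes called, with a median of -0.19. There 1 fell without wild-type replicate 1, and 1 rose without wild-type replicate 2 or bone-marrow macrophage replicate 2 or 3. Without repopulating replicate 3, 3 rose in each of these comparisons.

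Genes that deliver and mature lysosomal enzymes were all tested (19 of 19). Among them 4 (Gnptab, Grn, Igf2r and Sorl1) rose and none fell in repopulating microglia against wild type, beside 8.61% of all genes called. The median log2 fold of the 19 was 0.18. Without repopulating replicate 1 or 2 or any one bone-marrow macrophage library, 3 rose and Grn was not called. Only 1 rose without wild-type replicate 1 or 2, and 6 rose without repopulating replicate 3. Gnptab, which makes the mannose 6-phosphate mark on cathepsins, averaged 568 ± 53.5 normalised counts in repopulating microglia, 773 ± 14.0 in bone-marrow macrophages and 183 ± 11.3 in wild-type microglia (SD). It rose over wild type by a log2 of 1.62 ± 0.13 in repopulating microglia and of 2.07 ± 0.13 in bone-marrow macrophages (limma adjusted p = 0.000954 and 1.83e-05), under all 21 alternatives. Sort1, or sortilin, which can carry cathepsins to the lysosome, averaged 2739 ± 699, 714 ± 70.2 and 2916 ± 133 in the same groups. It fell in bone-marrow macrophages against wild type (log2 -2.03 ± 0.20) and was higher in repopulating microglia than in bone-marrow macrophages by 1.91 ± 0.18 (limma adjusted p = 0.000114 and 0.000118). Sorl1, another sorting receptor, was instead highest in bone-marrow macrophages, with 402 ± 47.8, 1162 ± 21.7 and 197 ± 1.93 in the same groups. Lgmn, or legumain, which can mature Ctsb, Ctsh and Ctsl, averaged 59332 ± 4298, 27235 ± 1792 and 52370 ± 3953 and was lower in bone-marrow macrophages than in wild type by a log2 of -0.94 ± 0.17 (limma adjusted p = 0.0024). In bone-marrow macrophages against wild type 4 of the 19 rose and 2 fell, against 2 and 2 without wild-type replicate 1 or 2 and 7 and 4 without repopulating replicate 3. In repopulating microglia against bone-marrow macrophages 4 rose and 2 fell, against 7 and 3 without repopulating replicate 3, and only 1 fell without any one bone-marrow macrophage library. The count of rises was 3 without bone-marrow macrophage replicate 1 or 2 or repopulating replicate 1. Over all genes tested 43.5% were called in the second comparison and 30.9% in the third.

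Among the partners and substrates of single cathepsins, Cd74, the invariant chain that Ctss trims, averaged 3791 ± 1182 normalised counts in repopulating microglia, 14965 ± 2387 in bone-marrow macrophages and 9283 ± 508 in wild-type microglia (SD). It fell in repopulating microglia against wild type (log2 -1.34 ± 0.27, limma adjusted p = 0.0214), a call that ended without wild-type replicate 1 or 2 (up to 0.176). Against bone-marrow macrophages it was lower by -2.02 ± 0.24 (limma adjusted p = 0.000411). Ctss, as given above, was higher in that comparison. Ifi30, the thiol reductase of antigen processing, averaged 4468 ± 1471, 5216 ± 659 and 2175 ± 69.0 and rose in bone-marrow macrophages over wild type (log2 1.25 ± 0.26, limma adjusted p = 0.00551). Of the granule peptidases that Ctsc activates, Elane had at most 2.83 normalised counts in repopulating microglia, at most 12.3 in bone-marrow macrophages, and 169 and 36.6 in wild-type microglia. Gzma, another of them, had at most 4.43 in repopulating microglia, between 12.3 and 31.8 in bone-marrow macrophages, and 302 and 44.7 in wild-type microglia. Neutrophil markers were highest in the wild-type libraries, as given above. The 5 T and NK cell markers summed to between 5.90 and 12.7 in repopulating microglia, 49.4 and 68.8 in bone-marrow macrophages and 89.5 and 412 in wild-type microglia. Gzma was the largest part of the wild-type sums, and Cd3d and Nkg7 also had their highest means there (27.5 and 49.9). Cd3e and Cd3g went the other way, with no read in wild-type microglia. In bone-marrow macrophages they stood between 2.84 and 8.82 and between 9.55 and 11.4. Elane is itself on the neutrophil list and Gzma on the T and NK cell list, and the part of such cells was not tested. Over all genes tested 8.61% were called in repopulating microglia against wild type, and 43.5% in bone-marrow macrophages against wild type. Of these 8 genes 5 (Cd74, Elane, Gzma, Gzmb and Prtn3) fell and none rose in repopulating microglia against wild type, but none was called without wild-type replicate 1. The count of falls was 3 when either repopulating replicate 1 or wild-type replicate 2 was left out, and 2 rose without repopulating replicate 3. Of the same 8, 2 rose and 2 fell in bone-marrow macrophages against wild type, against 1 and 0 without wild-type replicate 1 and 1 and 1 without bone-marrow macrophage replicate 2 or 3.

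Of 7 other lysosomal peptidases, Tpp1, a tripeptidyl peptidase, averaged 4469 ± 274 normalised counts in repopulating microglia, 2676 ± 93.6 in bone-marrow macrophages and 4558 ± 302 in wild-type microglia (SD). Like Ctsl it differed between bone-marrow macrophages and wild type (log2 -0.77 ± 0.12, limma adjusted p = 0.00141), while its log2 difference between both kinds of microglia was -0.03 ± 0.12. Napsa, an aspartic peptidase, averaged 40.8 ± 21.2, 261 ± 26.5 and 536 ± 177 in the same groups and was lower in repopulating microglia than in wild type by a log2 of -3.76 ± 0.37 (limma adjusted p = 0.00158). Of the 7, Scpep1, a serine carboxypeptidase, rose and Napsa fell in repopulating microglia against wild type, beside 8.61% of all genes called. The call of Scpep1 ended without any one library other than repopulating replicate 3 (adjusted p up to 0.172 over the alternatives), and 3 rose without that replicate. In bone-marrow macrophages against wild type 1 rose and 3 fell, against 2 and 4 without repopulating replicate 3 and 1 and 2 without wild-type replicate 1 or 2. In repopulating microglia against bone-marrow macrophages 4 rose and 2 fell, and only 1 fell without bone-marrow macrophage replicate 1 or 2. The count of rises was 3 without repopulating replicate 1 or 2 or any one bone-marrow macrophage library, and 5 without repopulating replicate 3. Among the rises, the call of Scpep1 ended here too without any one library other than repopulating replicate 3, wild-type libraries included. Over all genes tested 43.5% were called in the second comparison and 30.9% in the third.

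The TFE transcription factors, which drive lysosomal genes, and their regulators were all tested (8 of 8). None was called in repopulating microglia against wild type by limma, beside 8.61% of all genes, and the median log2 fold of the 8 was -0.06. At an unadjusted p under 0.05 the count was 0 as well, and it was 0 with edgeR and with DESeq2. Flcn, a negative regulator of TFEB and TFE3, averaged 734 ± 133 normalised counts in repopulating microglia, 482 ± 22.3 in bone-marrow macrophages and 777 ± 12.5 in wild-type microglia (SD). It fell in bone-marrow macrophages against wild type (log2 -0.69 ± 0.17, limma adjusted p = 0.0106), as did its partner Fnip1 (-0.64 ± 0.18, limma adjusted p = 0.0178). Both calls ended without wild-type replicate 1 or 2, and that of Fnip1 also without bone-marrow macrophage replicate 1 or 3, with an adjusted p of up to 0.0669 and 0.0977. Fnip2 was lower in repopulating microglia than in bone-marrow macrophages (-0.55 ± 0.13, limma adjusted p = 0.0116), a call that ended without bone-marrow macrophage replicate 2 (0.0547).

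Genes of like pattern were sought among 7307 genes with a mean of at least 100 normalised counts. Likeness was the root mean square difference, in log2 units over the 8 libraries, between profiles centred on each gene's mean. This is a description, and the libraries of a group share their origin. Nearest to Cst3 were Rab39 (0.133), Gal3st4 (0.154) and Cables1 (0.155), and nearest to Ctsl were Gcnt2 (0.191), Phyhd1 (0.199) and Sgk1 (0.233). Nearest to Ctsf were Pvrl2 (0.152), Csf3r (0.157) and Ier5 (0.180). Ctsh had the closest match of all, Npc2 (0.0570), followed by Scpep1 (0.0788) and Rps29 (0.0867). Ctsb lay nearest to Snhg8 (0.0784), Rpl21 (0.0988) and Lamp1 (0.115), and Ctsa to Pld3 (0.0824), Pik3ap1 (0.0979) and Eif2c1 (0.101). Ctsd lay nearest to Naglu (0.103), Unc93b1 (0.123) and Gas6 (0.135), and Ctss to Ly86 (0.123), Id2 (0.125) and Dpy19l4 (0.126). Ctsz lay nearest to Slc15a3 (0.0933), Daxx (0.108) and Lrpap1 (0.110), and Ctsc to Rps27l (0.111), Cox5a (0.121) and Cox7b (0.125). No member had another member among its 3 nearest genes. Among the members the closest pair was Ctsb and Ctsh (0.170), before Ctsa and Ctsd (0.178).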

How the data were processed

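Libraries were prepared with the TruSeq kit (version 2), and only RNA whose integrity number exceeded 8 was used, per the labels' protocols. TopHat2 2.0.10, DESeq 1.14.0, HTSeq and Bowtie2 2.1.0.0 are named as tools and mm10 as the build, per the submitters' processing notes. Their roles, the annotation and the strand setting were not stated in the texts read. The deposited values are a signal: the authors' gene counts over a size factor, 1 for each library. Every value above 0 was a multiple of what 1 read is worth (100% whole within 0.01 reads, for all genes), taking the smallest value as 1 read, and whole reads were recovered from them. Total reads ran from 5918944 to 12476427, and no column was left unused.

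Tests used limma 3.58.1 (R 4.3.3) on log2(normalised count + 1), without covariates and with a variance trend, over the 11415 genes that reached a normalised count of 10 in 2 or more libraries, which held 99.9% of reads. The pseudocount understates folds of low genes. Tests were two-sided, with calls at a p under 0.05 after Benjamini-Hochberg adjustment over all genes tested. Alternatives, 21 per comparison, included edgeR 4.0.16 and DESeq2 1.42.0 on the recovered reads, and the fit was checked on simulated data. edgeR called 969, 5040 and 3568 genes and DESeq2 called 1625, 5222 and 3819, where limma called 983, 4960 and 3526, for the 3 comparisons in the order of the text. The genes and lists were chosen with earlier results of these data known. Named were all 10 genes, up to 4 genes per pathway list (6 lists) by smallest adjusted p among those that passed, of which the text gives a part, and the 3 genes of most like profile to each. Coordinates are 1-based, from GENCODE vM21 (GRCm38, also called mm10). Without strand, reads of Ctsa and of Pltp, which overlap over 1515 bases, and of other overlapping or antisense genes cannot be told apart, and Gm49369 overlaps 6757 bases of Ctsd on its own strand. Figures were drawn with matplotlib 3.10.9.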

Additional observations from a re-analysis of the deposited data

How the results depend on the processing

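Cst3, Ctsf and Ctsl kept direction and call in both comparisons that involve bone-marrow macrophages under all 21 alternatives. The calls in repopulating against wild-type microglia were the least stable: 4 of the 10 genes were called in the analysis as reported, 1 with no filter, 1 with quantile normalisation, 0 with the 2 groups alone, 7 with library quality weights and 7 with DESeq2. Leaving out 1 library at a time gave between 0 and 8 called there (0 without repopulating replicate 1, where 6 had an unadjusted p under 0.05), between 3 and 6 in bone-marrow macrophages against wild type and between 6 and 9 in repopulating microglia against bone-marrow macrophages. Whether replicate numbers pair the samples could not be decided. Correlations of same-numbered deviations from group means lay between -0.240 and 0.244, and different-numbered ones reached -0.316 and 0.316. With 2 wild-type libraries the deviations of one mirror those of the other, so these correlations cannot settle it. With replicate number as a block 0, 4 and 7 of the 10 were called in the 3 comparisons, with 6 at an unadjusted p under 0.05 in the first. For all genes, 983 were called in repopulating against wild-type microglia as reported, 78 with the 2 groups alone, 2807 with weights, 1625 with DESeq2 and between 67 and 2958 without 1 library. In bone-marrow macrophages against wild type 4960 were called, and 2867 without wild-type replicate 1. In repopulating microglia against bone-marrow macrophages 3526 were called, 6409 with weights and between 2222 and 5348 without 1 library. With equal totals the median over all genes tested lay at a log2 fold of -0.12, 0.13 and -0.25 in the 3 comparisons. Some differences changed sign. In repopulating against wild-type microglia Ctsl had a log2 fold of -0.067 with equal totals, -0.34 with quantile normalisation, -0.022 without repopulating replicate 1 and -0.15 without wild-type replicate 2 (highest 0.23, without wild-type replicate 1), and Ctsc had -0.16 with quantile normalisation and -0.055 without repopulating replicate 2 (highest 0.65, without repopulating replicate 3). In bone-marrow macrophages against wild type Ctsa had -0.081 with quantile normalisation, -0.027 with the replicate block, -0.037 with weights, -0.028 without bone-marrow macrophage replicate 3 and -0.0021 without wild-type replicate 2. Its highest value without 1 library was 0.084, and its highest over all alternatives 0.16, with equal totals. In repopulating microglia against bone-marrow macrophages quantile normalisation gave -0.40 for Ctsb and -0.18 for Ctsz. The cause of these changes was not tested. With merged exon length, an alternative chosen after seeing the data, the ratio of cysteine cathepsins to Cst3 averaged 1.23 in repopulating microglia, 2.47 in bone-marrow macrophages and 0.447 in wild-type microglia. With 2 or 3 libraries per group, small differences were not detectable.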
